A study of Mus musculus with 16 samples.

Results

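Collagen genes are those that encode the alpha chains of the collagen triple helix, and they were taken as every gene of the expression table whose Ensembl identifier maps to a symbol of the form Col, number, a, number. The rule found 44 genes of 27 collagen types among 35647 genes. The data are bulk RNA-seq of cells isolated from the lamina propria, the connective tissue layer under the gut epithelium, on a Percoll step gradient of 40% and 80%. All mice were of wild-type genotype, were germ-free at the start and carried 1 bacterium alone for 5 weeks. The 4 groups were ileum and colon of mice colonized with Δchat Bifidobacterium breve, which does not produce acetylcholine, and ileum and colon of mice colonized with WT Bifidobacterium breve, with 4 libraries each. They are called Δchat ileum, Δchat colon, WT ileum and WT colon here, so WT and Δchat name the bacterial strain and not the mouse. The series gives 4 mice per strain, and the library names carry the same mouse number in both tissues, so that the 16 libraries were read as both tissues of 8 mice. Ages and sexes are not given in the labels used here.

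Collagens are grouped by the structure they build. Fibrillar collagens (types I, II, III, V, XI, XXIV and XXVII) form the tensile fibrils that fibroblasts lay down, and in the gut wall types I and III predominate while type V sets the diameter of the fibril. Type IV forms the sheet of the basement membrane under epithelium and around vessels, muscle and nerves, type VI forms beaded filaments around cells, and the fibril-associated collagens with interrupted triple helices (FACIT) coat the fibril surface. Multiplexins (types XV and XVIII) lie in basement membrane zones, and transmembrane collagens (types XIII, XVII, XXIII and XXV) are anchored in the cell surface. The type IV genes lie in head-to-head pairs, Col4a1 beside Col4a2, Col4a3 beside Col4a4 and Col4a5 beside Col4a6, and the partners of a pair are transcribed away from a common stretch of DNA.

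The sequences shown are the 250 bases before the gene start, from RefSeq on build GRCm38.p6, for genes that set ileum and colon apart: the divergent neighbours Col4a5 (chrX:141475169-141475418, plus strand) and Col4a6 (chrX:141474077-141474326, minus strand), the fibrillar genes Col5a3 (chr9:20815068-20815317, minus strand) and Col27a1 (chr4:63215162-63215411, plus strand), all lower in ileum, and Col23a1 (chr11:51289670-51289919, plus strand), higher in ileum. Each is printed 5′ to 3′ on the strand of its gene, and capitals mark a CCAAT box (CCAAT or its complement ATTGG) or a GC box (GGGCGG or CCGCCC).
Col4a5: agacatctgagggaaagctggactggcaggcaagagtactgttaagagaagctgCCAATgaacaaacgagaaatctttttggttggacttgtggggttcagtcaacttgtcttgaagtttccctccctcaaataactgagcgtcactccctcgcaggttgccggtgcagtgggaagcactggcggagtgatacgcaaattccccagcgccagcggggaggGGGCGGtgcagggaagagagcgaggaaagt
Col4a6: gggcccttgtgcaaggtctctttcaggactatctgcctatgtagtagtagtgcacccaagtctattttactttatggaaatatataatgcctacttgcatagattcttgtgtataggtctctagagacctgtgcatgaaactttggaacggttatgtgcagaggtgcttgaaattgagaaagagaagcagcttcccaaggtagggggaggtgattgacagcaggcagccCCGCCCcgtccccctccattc
Col5a3: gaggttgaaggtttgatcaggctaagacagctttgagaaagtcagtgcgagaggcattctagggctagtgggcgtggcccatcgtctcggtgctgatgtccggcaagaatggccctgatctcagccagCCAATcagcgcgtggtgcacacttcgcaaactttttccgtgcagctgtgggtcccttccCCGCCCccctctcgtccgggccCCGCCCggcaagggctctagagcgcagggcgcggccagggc
Col27a1: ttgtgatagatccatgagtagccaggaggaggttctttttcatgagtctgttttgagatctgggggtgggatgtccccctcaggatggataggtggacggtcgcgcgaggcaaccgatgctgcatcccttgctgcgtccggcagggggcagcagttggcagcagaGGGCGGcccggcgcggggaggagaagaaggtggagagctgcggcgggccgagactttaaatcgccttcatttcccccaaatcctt
Col23a1: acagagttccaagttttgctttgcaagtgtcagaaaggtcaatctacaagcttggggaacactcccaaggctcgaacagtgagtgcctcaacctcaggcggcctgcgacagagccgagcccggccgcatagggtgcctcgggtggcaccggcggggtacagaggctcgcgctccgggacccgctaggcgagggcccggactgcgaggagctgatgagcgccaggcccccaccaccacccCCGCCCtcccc
Col4a5 and Col5a3 hold 1 CCAAT box each, and all 5 windows hold at least 1 GC box. A TATA box (TATAAA or TTTATA) was found in none of the 5. The 5 are a choice among the called genes, and others differed. The windows of Col24a1 and Col6a1 held no CCAAT, GC or TATA box. That of Col17a1 held 1 CCAAT box, 0 GC boxes and 2 TATA boxes. Those of Col5a1, Col6a2 and Col6a6 held a GC box and no TATA box, and Col5a2 and Col12a1 had no window. The motifs were searched on both strands and separately from each other. Among all 32851 promoter windows of the same length, 33.8% hold a CCAAT box, 32.7% a GC box and 12.4% a TATA box. Of the 44 collagen genes, 35 had a window, with 38 windows in all. In at least 1 of their windows, 13 genes held a CCAAT box (37.1%), 21 a GC box (60.0%) and 5 a TATA box (14.3%). These shares are per gene, while those over all promoters are per window. The starts of Col4a5 and Col4a6 lie 1343 bases apart and those of Col4a1 and Col4a2 only 21 bases apart. A motif is a match of letters and not a measured binding site.

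Collagen transcripts made up 0.354% to 1.11% of a library, taken against its TMM-scaled size and not its plain total. Summed over the 44 genes, they came to 5809 ± 3214 CPM (counts scaled to a common library size, with TMM scaling) in Δchat ileum, 8134 ± 2144 CPM in Δchat colon, 7996 ± 1614 CPM in WT ileum and 8239 ± 2748 CPM in WT colon (SD, n = 4 each). On a scale of CPM per kilobase of the longest coding transcript, which allows genes to be compared, the mean level over all libraries was highest for Col3a1 (270 CPM per kb), followed by Col1a1 (195), Col1a2 (174), Col4a1 (165), Col4a2 (117), Col15a1 (77.9), Col6a1 (75.3) and Col6a2 (64.5). Col3a1, the single chain of type III, led in both colon groups with a mean of 325 CPM per kb in Δchat colon and 378 CPM per kb in WT colon. In Δchat ileum the basement membrane chain Col4a1 led with 206 CPM per kb, and in WT ileum Col1a1, the main chain of type I, led with 257 CPM per kb. At the low end, 9 genes did not reach the minimum count for testing and had at most 11 estimated counts in any library: Col2a1, Col9a1, Col9a2, Col10a1, Col11a1, Col19a1, Col22a1, Col25a1 and Col26a1. Type II, IX, X and XI collagens are best known from cartilage.

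By mean share, type IV was the largest collagen class in Δchat ileum and the fibrillar class was the largest in the other groups. No test was made of the shares. Fibrillar genes held 33.1 ± 12.8% of all collagen CPM in Δchat ileum, 54.4 ± 4.46% in Δchat colon, 54.2 ± 3.10% in WT ileum and 59.8 ± 2.97% in WT colon (SD, n = 4 each). The share of type IV genes was 44.3 ± 11.3% in Δchat ileum, 23.2 ± 3.35% in Δchat colon, 24.7 ± 3.25% in WT ileum and 16.7 ± 3.18% in WT colon. Multiplexins held 12.1 ± 3.79% in Δchat ileum, 5.64 ± 0.640% in Δchat colon, 6.37 ± 0.895% in WT ileum and 5.21 ± 0.532% in WT colon. The Δchat ileum libraries were the most unlike each other: their fibrillar share was 27.8% in replicate 1, 18.6% in replicate 2, 48.2% in replicate 3 and 38.0% in replicate 4. Their type IV share was 48.9%, 57.3%, 31.0% and 39.9%, so in replicate 3 the fibrillar class was the larger and in replicate 4 the classes were close.

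**Figure D1:**
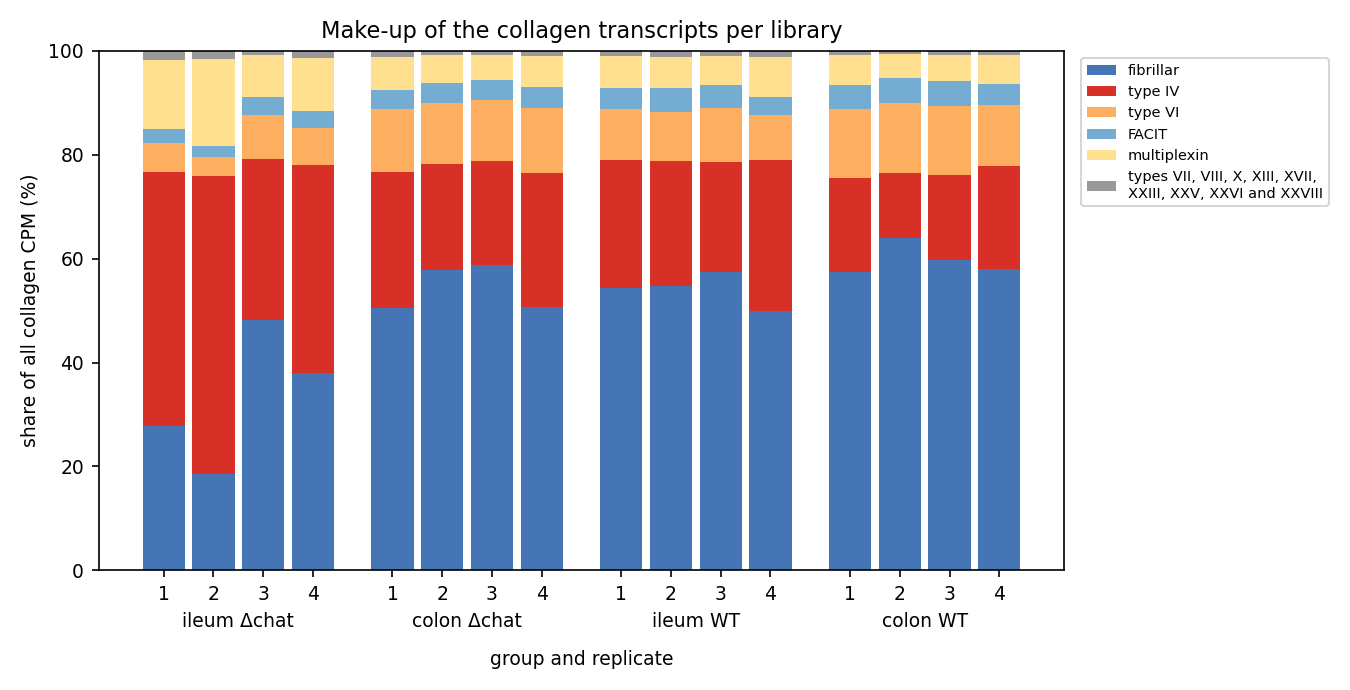
Share of each collagen class in the summed CPM of all 44 collagen genes (y axis, percent), with 1 bar per library, by group and replicate. The 4 Δchat ileum bars hold 18.6% to 48.2% fibrillar and 31.0% to 57.3% type IV transcripts; in every bar of the other groups the fibrillar class is the largest.

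The labels call the cells immune cells. Immune markers were present in every library, with 588 to 1303 CPM of Ptprc (the pan-leukocyte antigen CD45) and a sum of 5362 to 24004 CPM over 12 markers. Much of that sum came from 1 marker, the plasma cell gene Jchain, at 2926 to 21583 CPM. Transcripts of other cells were present too: 12 fibroblast markers summed to 287 to 3263 CPM, 12 smooth muscle and pericyte markers to 753 to 2083 CPM, and 12 endothelial markers to 2362 to 8734 CPM. Markers of mesothelium summed to at most 1.62 CPM, and none of the 6 passed the count filter. A pair of libraries stood apart. The Δchat ileum replicate 3 had 2288 CPM of fibroblast markers, against 387, 287 and 923 CPM in replicates 1, 2 and 4 of that group, and the Δchat colon replicate 3 had 3028 CPM of epithelial markers, against 218, 264 and 216 CPM in replicates 1, 2 and 4. Estimated counts per library ranged from 15940467 to 23612561 in total. In bulk RNA, fewer cells of a type and less RNA per cell cannot be told apart.

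Between tissues, ileum against colon, the collagens that differed in the fit without covariates were mostly lower in ileum. In Δchat-colonized mice they ranged from the rare chain Col24a1 to Col6a1 and Col6a2, which are among the 8 collagen genes with the highest CPM per kilobase, and the chains of types I and III were not called. With an edgeR quasi-likelihood fit over all 16 libraries and Benjamini-Hochberg adjustment over 15198 genes, 11 of 35 tested collagen genes (31.4%) were called at an adjusted p under 0.05 in Δchat-colonized mice, against 13.3% of all genes tested. Of these, 10 were lower in ileum (28.6%, against 5.03% of all genes) and 1 was higher (2.86%, against 8.31%). In WT-colonized mice 9 of 35 were called (25.7%, against 28.8% of all genes), 7 lower (20%, against 15.1%) and 2 higher (5.71%, against 13.7%). The share called in WT-colonized mice was thus near the background. The median log2 fold change of the 35 genes was -0.65 in Δchat-colonized and -0.19 in WT-colonized mice, and over all genes it was -0.02 and -0.04.

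Called lower in ileum with both strains were 6 genes (2.8% of all genes were): Col4a5, Col4a6, Col5a3, Col12a1, Col24a1 and Col27a1. Col23a1 was called higher with both, as were 6.44% of all genes. The direction was the same with both strains for 29 of 35 genes, and no gene was called in opposite directions. All 8 ileum libraries lay below all 8 colon libraries for 6 of the 35 genes, Col4a5, Col4a6, Col5a1, Col5a3, Col12a1 and Col27a1, as for 2.16% of all genes; the reverse held for 0 of 35, and for 4.38% of all genes. Counted within mice, 9 of 35 genes were lower in ileum than in colon in 8 of 8 mice, against 9.7% of all genes, and 2 (Col17a1 and Col23a1) were higher in 8 of 8, against 11% of all genes.

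**Figure D2:**
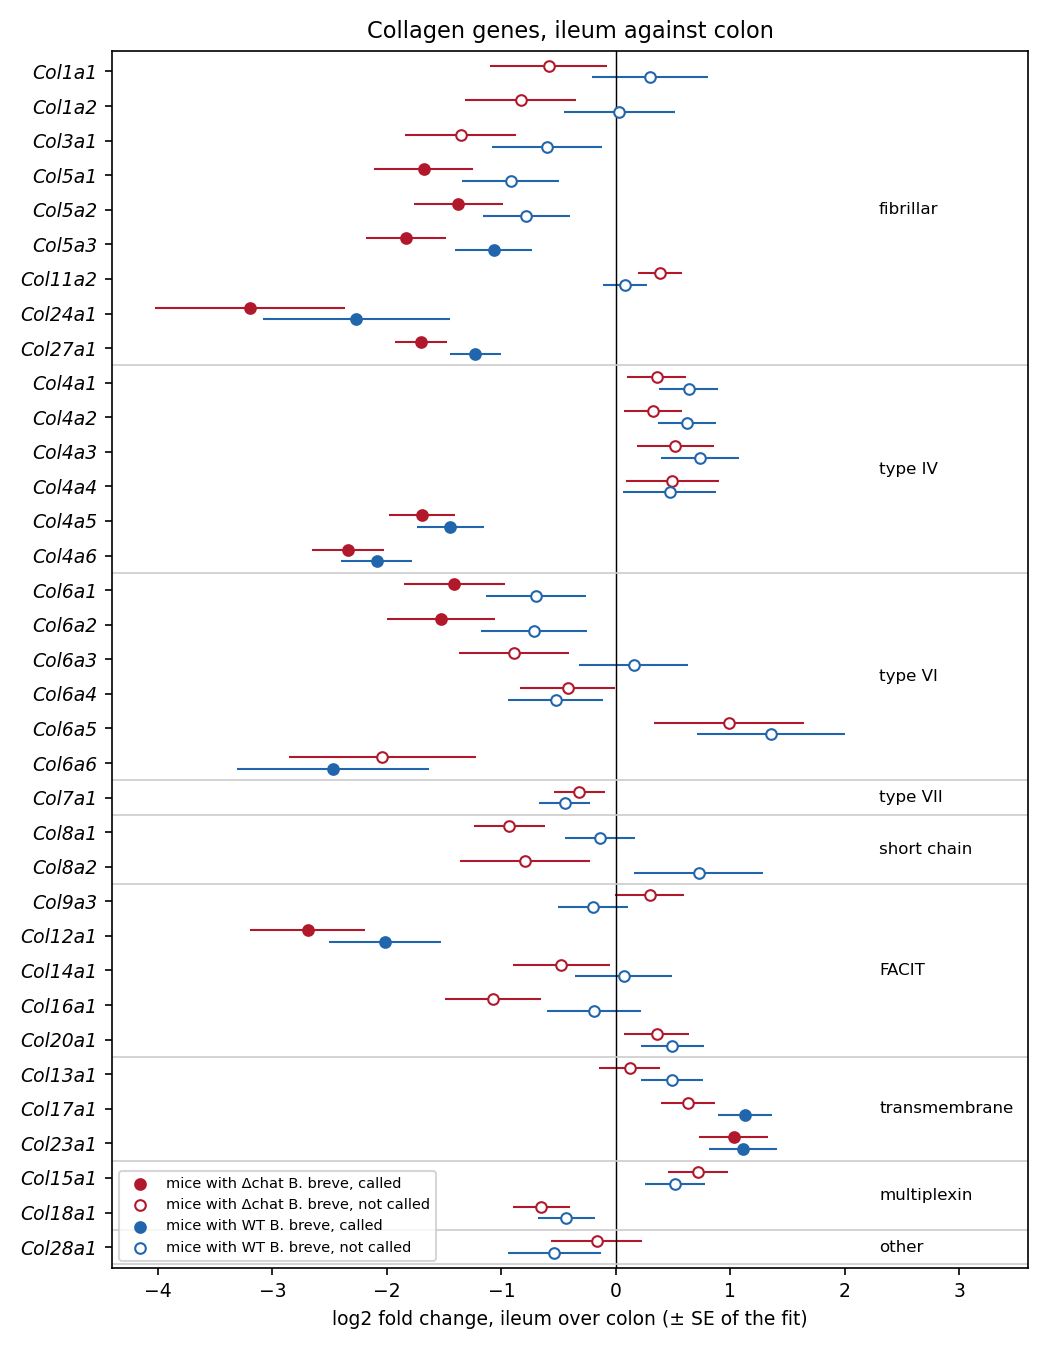
Log2 fold change, ileum over colon (x axis), of the 35 tested collagen genes by class, in Δchat-colonized (red) and WT-colonized mice (blue); bars are the SE of the fit and filled points have an adjusted p under 0.05. Filled points lie left of 0 for types IV, V, VI, XII, XXIV and XXVII, and right of 0 for Col17a1 and Col23a1.

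Type IV chains split by gene pair. Col4a5 and Col4a6, whose chains assemble into the alpha5-alpha5-alpha6 network known from smooth muscle and some epithelial basement membranes, were lower in ileum. Col4a5 had 8.37, 7.35, 15.8 and 7.97 CPM in Δchat ileum, against 27.5, 25.8, 31.6 and 43.4 CPM in Δchat colon. In WT-colonized mice it had 12.4, 10.6, 11.3 and 11.7 CPM in ileum and 22.2, 47.6, 35.6 and 19.96 CPM in colon. Every ileum library was below every colon library, and the log2 fold change was -1.69 (SE 0.29, adjusted p = 0.00208) in Δchat-colonized and -1.44 (SE 0.29, adjusted p = 0.00341) in WT-colonized mice. Col4a6 had 2.03, 2.34, 4.58 and 2.74 CPM in Δchat ileum, against 14.1, 13.1, 12.6 and 19.95 CPM in Δchat colon, and 4.05, 3.37, 3.23 and 3.73 CPM in WT ileum, against 10.1, 24.6, 17.2 and 9.30 CPM in WT colon. The highest ileum library, again Δchat replicate 3, was below the lowest colon library. The log2 fold change of Col4a6 was -2.34 (SE 0.32, adjusted p = 0.000494) in Δchat-colonized and -2.09 (SE 0.31, adjusted p = 0.000546) in WT-colonized mice, a fold of 5.06 and 4.26.

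The ubiquitous pair Col4a1 and Col4a2, which form the alpha1-alpha1-alpha2 network of nearly all basement membranes, was not called. Col4a1 had 992, 1401, 1928 and 1136 CPM in Δchat ileum and 885, 760.3, 1079 and 1533 CPM in Δchat colon, then 1385, 824, 998 and 1505 CPM in WT ileum and 602, 773, 952 and 699.6 CPM in WT colon. The groups overlapped in both strains, and the log2 fold change of Col4a1 was 0.36 (SE 0.26, adjusted p = 0.38) in Δchat-colonized and 0.64 (SE 0.26, adjusted p = 0.0755) in WT-colonized mice. Col4a2 had log2 fold changes of 0.32 and 0.62, and Col4a3 and Col4a4, chains of the network of the kidney glomerulus, had 0.52 and 0.73, and 0.49 and 0.47, in Δchat-colonized and WT-colonized mice; none was called. The log2 ratio of Col4a6 to Col4a1 within a library averaged -8.89 ± 0.25 in Δchat ileum, -6.13 ± 0.26 in Δchat colon, -8.32 ± 0.30 in WT ileum and -5.73 ± 0.53 in WT colon (SD, n = 4 each), with no overlap between tissues. The log2 ratio of Col4a1 to its partner Col4a2 lay between 0.41 and 0.65 in all 16 libraries. That of Col4a5 to its partner Col4a6 averaged 1.76 ± 0.22 in Δchat ileum, 1.10 ± 0.17 in Δchat colon, 1.69 ± 0.09 in WT ileum and 1.06 ± 0.08 in WT colon, so Col4a6 was lower relative to Col4a5 in every ileum library than in any colon library. These ratios are of CPM, not corrected for length, and no test was made of them.

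Among the fibrillar collagens, the 3 chains of type V and the minor types XXIV and XXVII carried the calls. Col5a3, a type V chain of restricted expression, had 12.3, 17.3, 45.2 and 21.4 CPM in Δchat ileum, against 70.5, 69.1, 91.4 and 112 CPM in Δchat colon. It had 41.96, 28.6, 36.7 and 43.3 CPM in WT ileum, against 59.9, 109.6, 89.6 and 56.4 CPM in WT colon. No ileum library reached a colon library, and the log2 fold change was -1.83 (SE 0.35, adjusted p = 0.0037) in Δchat-colonized and -1.07 (SE 0.34, adjusted p = 0.0298) in WT-colonized mice. Of 8 fits that left out 1 library, 6 lost the WT call of Col5a3, all but those without WT colon replicate 1 or 4, and its log2 fold change ranged from -1.19 to -0.86.

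Col5a1, the chain found in most type V molecules, had 39.6, 33.3, 152 and 60.4 CPM in Δchat ileum, against 159, 179.8, 285 and 290.4 CPM in Δchat colon. In WT-colonized mice Col5a1 had 155, 98.5, 142 and 140.4 CPM in ileum, against 179.5, 365, 304 and 163 CPM in colon. Ileum was below colon without overlap, but only the Δchat difference was called: -1.68 (SE 0.43, adjusted p = 0.0192), against -0.92 (SE 0.42, adjusted p = 0.117) in WT-colonized mice. Col5a2, its partner chain, had 36.3, 36.9, 134 and 49.7 CPM in Δchat ileum, against 126, 138, 202 and 199.6 CPM in Δchat colon, and 132, 90.1, 115 and 122 CPM in WT ileum, against 152, 284, 227 and 126 CPM in WT colon. The highest ileum library of Col5a2 in Δchat-colonized mice, replicate 3, overlapped the lowest colon library, and the log2 fold change was -1.38 (SE 0.39, adjusted p = 0.03) in Δchat-colonized and -0.78 (SE 0.38, adjusted p = 0.138) in WT-colonized mice. The Δchat call of Col5a1 was lost without Δchat ileum replicate 1 or 2 or Δchat colon replicate 3 (adjusted p = 0.0531, 0.0603 and 0.0502). That of Col5a2 was lost without Δchat ileum replicate 1, 2 or 4 or Δchat colon replicate 3 or 4 (adjusted p = 0.0786, 0.0999, 0.0717, 0.0707 and 0.069).

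Col27a1, a fibrillar collagen known chiefly from cartilage, had 4.25, 5.39, 6.94 and 5.01 CPM in Δchat ileum, against 14.1, 14.6, 17.3 and 24.7 CPM in Δchat colon. It had 6.67, 5.95, 7.53 and 8.95 CPM in WT ileum and 14.2, 22.7, 18.2 and 12.97 CPM in WT colon. Every ileum library was below every colon library. The SD was 1.13 CPM in Δchat ileum, 4.92 CPM in Δchat colon, 1.29 CPM in WT ileum and 4.40 CPM in WT colon. The log2 fold change of Col27a1 was -1.70 (SE 0.23, adjusted p = 0.000418) in Δchat-colonized and -1.23 (SE 0.22, adjusted p = 0.00183) in WT-colonized mice. Col24a1, another minor fibrillar collagen, was near the detection limit: it had 0, 0, 0.0857 and 0.514 CPM in Δchat ileum, against 0.485, 1.28, 1.79 and 2.62 CPM in Δchat colon, and 0.417, 0.112, 0.135 and 0.222 CPM in WT ileum, against 0.711, 1.62, 1.36 and 0.564 CPM in WT colon. The tissues overlapped narrowly in Δchat-colonized mice and did not overlap in WT-colonized mice. The log2 fold change was -3.19 (SE 0.83, adjusted p = 0.0196) and -2.27 (SE 0.82, adjusted p = 0.0495). The WT call was lost with the mouse as a block (adjusted p = 0.0518). All 8 fits that left out 1 library lost the WT call, and those without Δchat ileum replicate 2 or 3 lost the Δchat call (adjusted p = 0.0515 and 0.0536).

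Types I and III, the bulk of the fibrils, were not called in either strain. Col3a1 had 325, 259, 1644 and 599.5 CPM in Δchat ileum, against 1204, 1523, 2430.0 and 2075 CPM in Δchat colon, and 1653, 1058, 1398 and 1435 CPM in WT ileum, against 1445, 3090.1, 2463 and 1414 CPM in WT colon. In Δchat-colonized mice 3 of 4 ileum libraries were below every colon library while replicate 3 lay within the colon range, and the log2 fold change was -1.35 (SE 0.48, adjusted p = 0.0799); in WT-colonized mice it was -0.60 (SE 0.48, adjusted p = 0.369). With the mouse as a block the Δchat difference of Col3a1 passed the test (-1.71, adjusted p = 0.0181). Col1a1 had log2 fold changes of -0.59 (SE 0.51, adjusted p = 0.474) in Δchat-colonized and 0.30 (SE 0.51, adjusted p = 0.698) in WT-colonized mice, and Col1a2 had -0.83 and 0.03. Col11a2, a chain of the cartilage collagen XI, had 0.38 and 0.08, with 5.83 to 13.1 CPM over the 16 libraries.

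The ratio of type III to type I did set the tissues apart within a library. The log2 ratio of Col3a1 to Col1a1 averaged 0.00 ± 0.13 in Δchat ileum, 0.68 ± 0.12 in Δchat colon, -0.13 ± 0.09 in WT ileum and 0.77 ± 0.23 in WT colon (SD, n = 4 each). It ran from -0.23 to 0.15 over the 8 ileum libraries and from 0.50 to 1.04 over the 8 colon libraries. This held in Δchat ileum replicate 3 as well, although its Col1a1 level (1805 CPM) was far above that of the other 3 (311, 234 and 629 CPM). Because both genes are read from the same library, the ratio does not depend on its depth or scaling; no test was made of it. The log2 ratio of Col1a1 to Col1a2, whose chains assemble together in type I, lay between 0.05 and 0.56 in all 16 libraries, and that of Col6a1 to Col6a2 between -0.04 and 0.27.

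Col12a1, a FACIT that binds to the surface of type I fibrils, was lower in ileum with both strains. It had 8.95, 5.28, 19.9 and 11.01 CPM in Δchat ileum, against 41.1, 34.3, 91.1 and 127 CPM in Δchat colon. In WT-colonized mice Col12a1 had 25.9, 16.0037, 18.8 and 19.4 CPM in ileum, against 71.6, 116, 102 and 33.4 CPM in colon. Colon libraries varied widely within each group, and all stood above all ileum libraries. The log2 fold change was -2.69 (SE 0.50, adjusted p = 0.00371) in Δchat-colonized and -2.01 (SE 0.49, adjusted p = 0.00899) in WT-colonized mice. Col14a1, the FACIT gene with the highest level per kilobase, was not called. It had 60.7, 65.8, 296 and 117 CPM in Δchat ileum, against 148, 175, 207 and 220.4 CPM in Δchat colon, and 288, 201, 277 and 234 CPM in WT ileum, against 142, 330.3, 304 and 176 CPM in WT colon. Its log2 fold change was -0.48 (SE 0.42, adjusted p = 0.484) in Δchat-colonized and 0.07 (SE 0.42, adjusted p = 0.92) in WT-colonized mice. Col16a1 (-1.07 and -0.19), Col20a1 (0.36 and 0.49) and Col9a3 (0.30 and -0.20, log2 fold changes in Δchat-colonized and WT-colonized mice) were not called. Exons of Col9a3 overlap those of Tcfl5 on the other strand, and no source used here states that the counting used strand, so reads of the pair may not have been told apart.

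**Figure D3:**
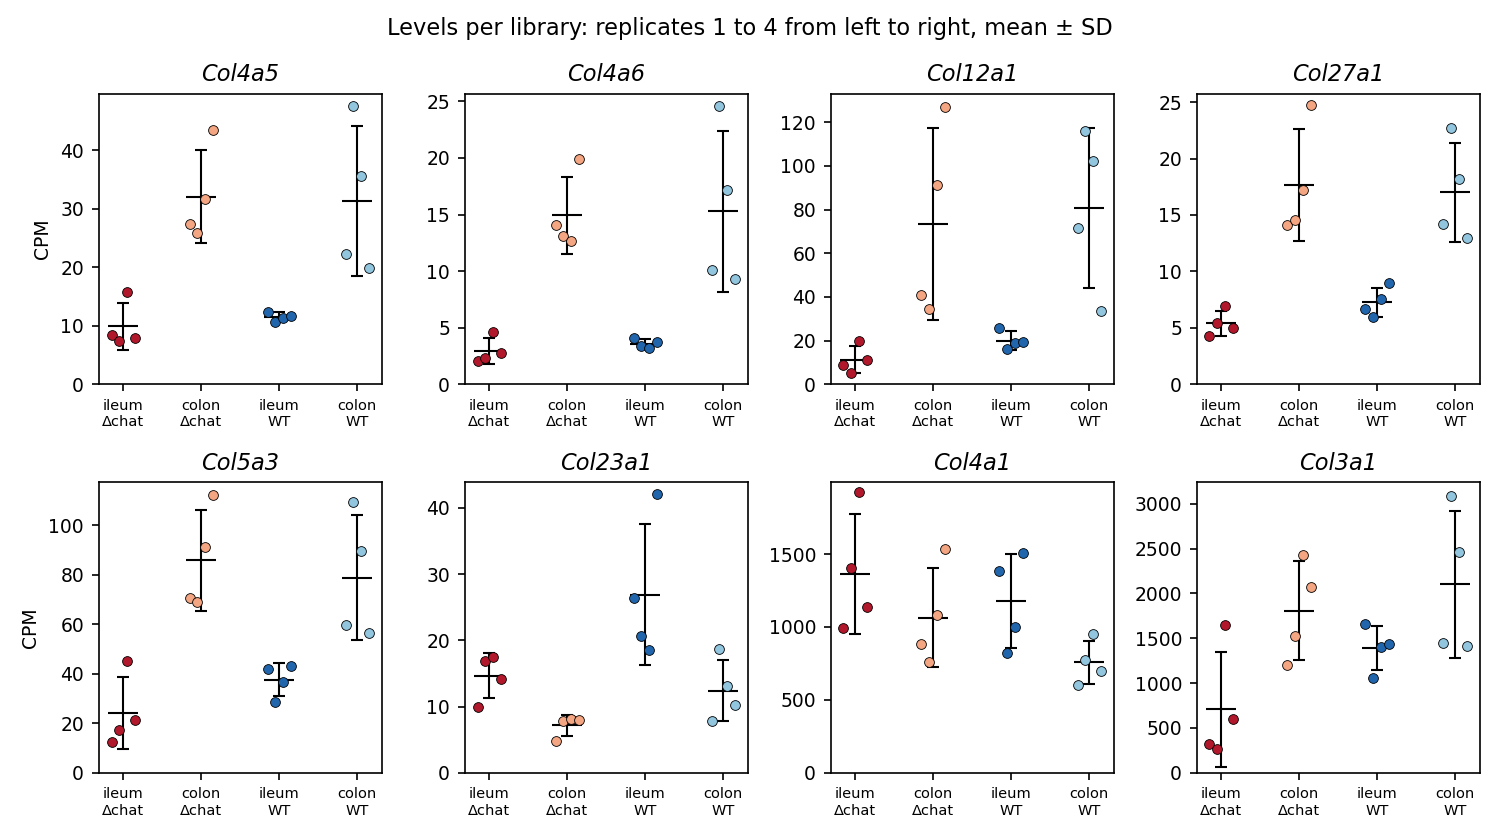
CPM (y axis, from 0) of 8 collagen genes in each library, by group; points are replicates 1 to 4 from left to right and bars the mean ± SD. Col4a5, Col4a6, Col12a1, Col27a1 and Col5a3 are lower in every ileum library than in any colon library, Col23a1 is higher in ileum on average, and Col4a1 and Col3a1 overlap between tissues.

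Of the type VI chains, Col6a1 and Col6a2, which every type VI molecule needs, were called lower in ileum in Δchat-colonized mice alone. Col6a1 had 74.1, 62.8, 306 and 128 CPM in Δchat ileum, against 270.5, 302, 445 and 499 CPM in Δchat colon. It had 338, 195, 284 and 272 CPM in WT ileum, against 313, 624, 555 and 273 CPM in WT colon. Replicate 3 of Δchat ileum lay inside the colon range, and the log2 fold change was -1.41 (SE 0.44, adjusted p = 0.0495) in Δchat-colonized and -0.70 (SE 0.44, adjusted p = 0.249) in WT-colonized mice. Col6a2 had 63.7, 52.2, 289 and 113 CPM in Δchat ileum, against 266, 287, 432 and 512 CPM in Δchat colon, and 327, 189, 287 and 255 CPM in WT ileum, against 317, 626, 526 and 262 CPM in WT colon; the log2 fold change was -1.53 (SE 0.47, adjusted p = 0.0457) and -0.71 (SE 0.46, adjusted p = 0.269). Both Δchat calls were lost in 7 of 8 fits that left out 1 library and held only without Δchat ileum replicate 3. The third common chain, Col6a3, had -0.89 (SE 0.48, adjusted p = 0.239) in Δchat-colonized and 0.16 (SE 0.47, adjusted p = 0.836) in WT-colonized mice. Chains that can take its place were scarce: Col6a6 had 0, 0, 0.214 and 0.171 CPM in Δchat ileum, against 0.794, 0.310, 0.458 and 0.252 CPM in Δchat colon, and 0.119, 0.112, 0 and 0.167 CPM in WT ileum, against 0.164, 0.898, 0.639 and 0.508 CPM in WT colon. It was called lower in WT-colonized mice (-2.47, SE 0.84, adjusted p = 0.0393), a call lost in 7 of 8 fits that left out 1 library, all but the one without WT colon replicate 1, and with the mouse as a block (adjusted p = 0.099), and it was not called in Δchat-colonized mice (-2.04, SE 0.82, adjusted p = 0.113). Col6a4 had log2 fold changes of -0.42 and -0.52, and Col6a5 of 0.99 and 1.36, neither called.

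The genes higher in ileum were transmembrane collagens. Col23a1 had 10.0003, 16.8, 17.5 and 14.2 CPM in Δchat ileum, against 4.81, 7.88, 8.08 and 7.91 CPM in Δchat colon. It had 26.4, 20.6, 18.6 and 42.04 CPM in WT ileum, against 7.77, 18.6, 13.1 and 10.2 CPM in WT colon. The groups were apart in Δchat-colonized mice and overlapped in WT-colonized mice, where the lowest ileum library and the highest colon library were both at 18.6 CPM. The log2 fold change of Col23a1 was 1.03 (SE 0.30, adjusted p = 0.0353) in Δchat-colonized and 1.11 (SE 0.30, adjusted p = 0.0139) in WT-colonized mice; the Δchat call was lost in 7 of 8 fits that left out 1 library, all but the one without Δchat ileum replicate 1, and with the mouse as a block (adjusted p = 0.0508). The WT call of Col23a1 was lost without WT ileum replicate 4 (adjusted p = 0.0516). Col17a1, the hemidesmosome collagen of epithelial cells, had 2.94, 2.56, 2.74 and 3.98 CPM in Δchat ileum, against 2.03, 1.33, 1.79 and 2.77 CPM in Δchat colon, and 4.94, 4.38, 6.19 and 4.95 CPM in WT ileum, against 2.24, 2.56, 2.71 and 1.80 CPM in WT colon. It was called in WT-colonized mice (1.13, SE 0.23, adjusted p = 0.00375), where the groups did not overlap, and not in Δchat-colonized mice (0.63, SE 0.23, adjusted p = 0.0895). Of 12 epithelial markers 0 were called in WT-colonized mice by edgeR, DESeq2 or limma-voom, with 0 at an unadjusted p under 0.05 by edgeR. Their summed level was 72.3 to 273 CPM in WT ileum and 39.3 to 194 CPM in WT colon, with a median log2 fold change of 0.41, and their part in the Col17a1 value was not tested. Col13a1, the transmembrane collagen with the highest level per kilobase, had log2 fold changes of 0.12 and 0.49, not called.

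Further classes held no call. Col15a1, the multiplexin with the higher level per kilobase, had 415, 627, 737 and 447 CPM in Δchat ileum, against 277, 250.2, 339.9 and 489 CPM in Δchat colon, and 488, 279, 359 and 558 CPM in WT ileum, against 230.0, 331, 363 and 252 CPM in WT colon. Its log2 fold change was 0.71 (SE 0.26, adjusted p = 0.0853) in Δchat-colonized and 0.52 (SE 0.26, adjusted p = 0.15) in WT-colonized mice, while Col18a1, the precursor of endostatin, had -0.65 and -0.43. Col8a1, a short-chain collagen of vessel walls, had 8.04, 7.24, 23.8 and 11.3 CPM in Δchat ileum, against 22.4, 20.4, 29.1 and 24.4 CPM in Δchat colon, and 23.03, 18.5, 19.5 and 18.5 CPM in WT ileum, against 14.8, 28.1, 25.6 and 19.1 CPM in WT colon. It had -0.93 (SE 0.31, adjusted p = 0.0611) in Δchat-colonized and -0.14 (SE 0.31, adjusted p = 0.765) in WT-colonized mice, and its relative Col8a2 had -0.79 and 0.72. With the mouse as a block, Col8a1 and Col16a1 passed in Δchat-colonized mice (adjusted p = 0.0225 and 0.0445). Col7a1, which forms anchoring fibrils under epithelia, ranged from 1.46 to 3.72 CPM over the 16 libraries, with log2 fold changes of -0.32 and -0.45. Col28a1, known from peripheral nerve in mice, had 0.842 to 4.53 CPM, with -0.17 and -0.54.

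With the mouse as a block, 13 genes were called in Δchat-colonized mice, all lower in ileum (12.3% of all genes were called, 4.61% lower), and 7 in WT-colonized mice (25.7% of all genes). Leaving out 1 library at a time gave 5 to 17 calls in Δchat-colonized mice: 7 without Δchat ileum replicate 1 (14.1% of all genes), 5 without replicate 2 (8.54%), 17 without replicate 3 (all lower in ileum, as were 5.65% of all genes), 7 without replicate 4 (12.2%) and 6 without Δchat colon replicate 3 (11.1% of all genes). In WT-colonized mice it gave 5 to 8 of 35, where 16.9% to 27.1% of all genes were called. The lowest was without WT ileum replicate 4, at 14.3% of the collagen genes and 19.8% of all genes. Col4a5, Col4a6, Col12a1 and Col27a1 stayed called in all 8 such fits in each strain, Col5a3 in all 8 in Δchat-colonized mice, and Col17a1 in all 8 in WT-colonized mice.

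Markers of the cells that make collagens moved with tissue as well. By edgeR, 8.31% of all genes were called higher in ileum and 5.03% lower in Δchat-colonized mice. In WT-colonized mice these shares were 13.7% and 15.1%. Of 12 fibroblast markers, 5 were called lower in ileum in Δchat-colonized and 4 in WT-colonized mice, with a median log2 fold change of -1.20 and -0.41 and no marker called higher. The log2 fold change was negative for 12 of 12 in Δchat-colonized and for 8 of 12 in WT-colonized mice. Mfap5, a microfibril protein, had -2.10 (SE 0.45, adjusted p = 0.00758) and -1.58 (SE 0.44, adjusted p = 0.0164), and Twist2, a mesenchymal transcription factor, had -2.01 (SE 0.44, adjusted p = 0.008) and -2.06 (SE 0.43, adjusted p = 0.00413). Pdpn, a fibroblast surface protein, had -2.10 and -1.29, and the transcription factor Tcf21 had -2.23 and -1.99, all called. Endothelial markers went the other way: 4 of 12 were called higher in ileum in Δchat-colonized and 10 of 12 in WT-colonized mice, led by Vwf (1.45 and 1.52), Plvap (1.07 and 1.41) and Kdr (1.17 and 1.24), with medians of 0.55 and 0.76. Smooth muscle and pericyte markers had negative log2 fold changes in ileum for 11 of 12 genes in Δchat-colonized and 12 of 12 in WT-colonized mice, with medians of -0.46 and -0.50. By edgeR 1 of them was called lower in each strain (Cspg4, -0.87, in Δchat-colonized and Tagln, -0.68, in WT-colonized mice). In WT-colonized mice DESeq2 called 4 lower and limma-voom 5. These tools called 32.6% and 37.1% of all genes there, in either direction. Of 6 enteric glia markers tested 0 were called by edgeR in either strain. An unadjusted p under 0.05 was found by edgeR for 3 in Δchat-colonized and 1 in WT-colonized mice, against 28.7% and 40.9% of all genes. DESeq2 called 0 and 0 of the glia markers, and limma-voom 0 and 1. Of 12 epithelial markers 1 was called in Δchat-colonized mice, Krt20 (-3.90), where Δchat colon replicate 3 stood apart. The part of these markers in the collagen values was tested only through the covariates given next and in the closing section. Immune markers were called higher in ileum for 8 of 12 genes in Δchat-colonized and 7 of 12 in WT-colonized mice, where 2 were called lower. The plasma cell gene Jchain alone averaged 10086 ± 2256 CPM in Δchat ileum, 3605 ± 508 CPM in Δchat colon, 15196 ± 4415 CPM in WT ileum and 8368 ± 2619 CPM in WT colon (SD, n = 4 each).

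The tissue contrast was also fitted with a stromal score as covariate, the mean log2 CPM of the fibroblast and smooth muscle or pericyte markers. Col4a6 kept a log2 fold change of -1.45 in Δchat-colonized and -1.53 in WT-colonized mice (adjusted p = 0.00631 and 0.000272), Col4a5 -0.82 and -0.91 (adjusted p = 0.0181 and 0.000819), Col27a1 -1.15 and -0.93, and Col5a3 -0.87 and -0.50, all called. Col12a1 had -1.33 and -1.22 and was called in WT-colonized mice only (adjusted p = 0.0661 in Δchat-colonized and 0.0106 in WT-colonized mice). The calls on type V chains Col5a1 and Col5a2 and on Col6a1 and Col6a2 in Δchat-colonized mice were lost. Those on Col24a1 were lost with both strains (-1.99 and -1.61, adjusted p = 0.281 and 0.179), and that on Col6a6 in WT-colonized mice was lost too (-1.71, adjusted p = 0.156). In this fit 5 were called higher and 4 lower in Δchat-colonized mice, where 6.03% of all genes were called higher and 5.2% lower, and 12 higher and 5 lower in WT-colonized mice, where 35.7% of all genes were called, 15.6% higher and 20.2% lower. The median log2 fold change of the 35 genes in this fit was 0.05 in Δchat-colonized and 0.21 in WT-colonized mice. Over all genes it was -0.03 and -0.02. Higher with both strains were Col4a1, with 0.95 and 0.92, and Col15a1, with 1.30 and 0.80. In WT-colonized mice Col1a1 was called higher too, with 1.10 (adjusted p = 0.0035).

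**Figure D4:**
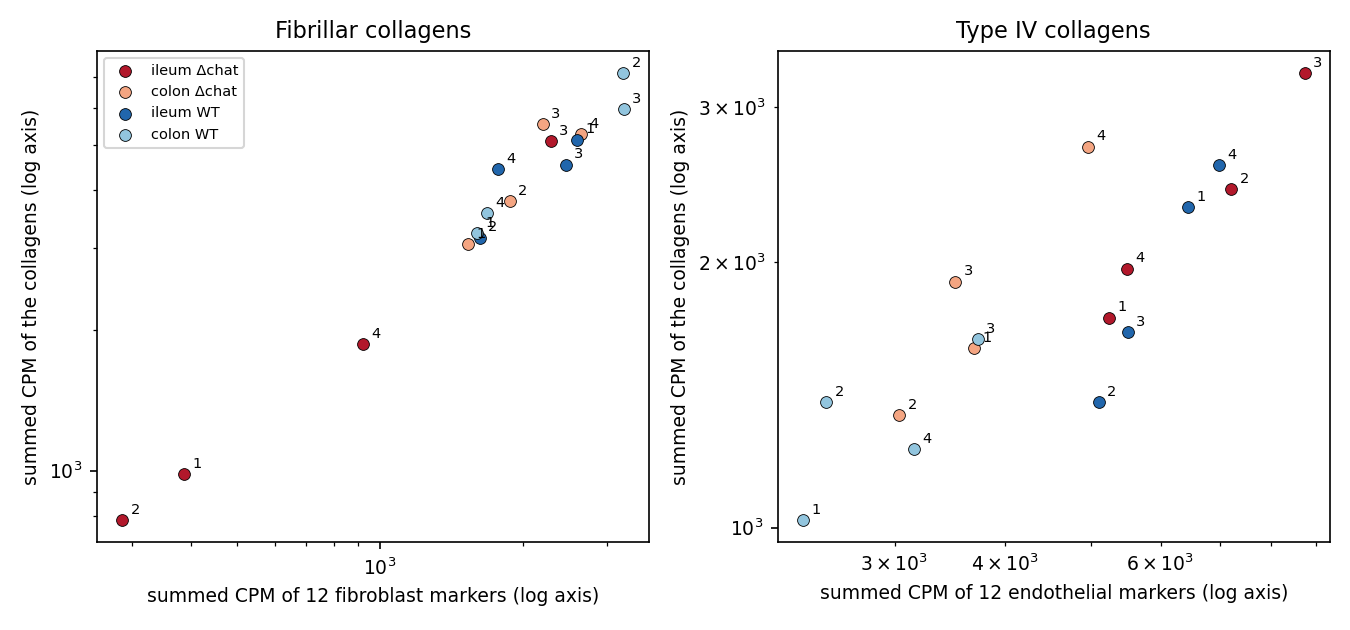
Left, summed CPM of the fibrillar collagen genes (y axis) against the summed CPM of 12 fibroblast markers (x axis); right, summed CPM of the type IV genes against 12 endothelial markers; all axes are logarithmic, and each point is a library with its replicate number. Δchat ileum replicates 1, 2 and 4 are low in both fibroblast markers (287 to 923 CPM) and fibrillar collagens (783 to 1873 CPM), and replicate 3 lies among the libraries of the other groups.

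Genes that process, bind or degrade collagen were read from lists chosen by function, against the 13.3% of all genes called in Δchat-colonized and the 28.8% in WT-colonized mice. Of 20 tested genes for chain folding and modification 0 were called in Δchat-colonized mice by edgeR (1 at an unadjusted p under 0.05; DESeq2 called 1 and limma-voom 0), and 2 were higher in ileum in WT-colonized mice: Colgalt2, a collagen galactosyltransferase, with 0.68 (SE 0.20, adjusted p = 0.0202), and P4hb, the beta subunit of prolyl 4-hydroxylase, with 0.27 (SE 0.10, adjusted p = 0.0471). In Δchat-colonized mice P4hb had 0.19 (SE 0.10, adjusted p = 0.21) and the collagen chaperone Serpinh1 -0.45 (SE 0.34, adjusted p = 0.408). Of 13 genes for propeptide cleavage and cross-linking, 3 were lower and 1 higher in ileum in Δchat-colonized mice, and 1 was lower and 2 were higher in WT-colonized mice (30.8% and 23.1% called). Adamts3, of the procollagen N-proteinase family, was lower with both strains (-2.47 and -1.57), near the detection limit at 0.0428 to 1.06 CPM per library. The C-proteinase Tll1 was higher with both (0.88 and 1.10). The cross-linking enzyme Loxl2 was lower in Δchat-colonized mice (-1.49, SE 0.42, adjusted p = 0.0318). Tgm2, a transglutaminase, was higher in WT-colonized mice (1.52, SE 0.21, adjusted p = 0.000307).

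Of 16 fibril-associated matrix genes, 6 were lower and 1 was higher in Δchat-colonized mice, and 4 were lower and 0 higher in WT-colonized mice (43.8% and 25% called), with a median of -1.20 and -0.37. Postn, periostin, had -3.39 (SE 0.54, adjusted p = 0.00144) in Δchat-colonized and -2.86 (SE 0.53, adjusted p = 0.00221) in WT-colonized mice, at 24.7 ± 19.6 CPM in Δchat ileum, 259 ± 128 CPM in Δchat colon, 46.6 ± 11.8 CPM in WT ileum and 338 ± 135 CPM in WT colon. Tnxb, tenascin X, had -2.004 and -1.39. Fn1, fibronectin, was called lower with both strains too (-1.49 and -0.81). Comp, which binds fibrils, was lower in WT-colonized mice (-1.80), near the detection limit at 0.171 to 1.62 CPM per library. Dcn, Lum and Dpt of this list, and Fap of the degradation list, also stand among the fibroblast markers. Of 17 basement membrane partners, 4 were lower and 0 higher in Δchat-colonized mice (among them Lamb3 -1.98 and Lama2 -1.57, both laminin chains), and 1 was lower and 3 were higher in WT-colonized mice (Npnt 0.92, Lamc3 -1.03 and Agrn 0.59), 23.5% of the list in each strain.

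Of 11 collagen receptor genes tested, 3 were higher and 1 was lower in ileum in Δchat-colonized mice, and 5 were higher and 1 was lower in WT-colonized mice (36.4% and 54.5% called). Lair1, the inhibitory collagen receptor of leukocytes, had 2.08 (SE 0.35, adjusted p = 0.00176) and 2.34 (SE 0.35, adjusted p = 0.000618); Mrc1, a macrophage receptor that takes up collagen, had 1.58 and 2.28, and Itga2, a chain of the alpha2-beta1 integrin, 0.74 and 0.67. Of 12 degradation genes, 2 were higher and 2 lower in Δchat-colonized mice, and 3 were higher and 1 was lower in WT-colonized mice (33.3% called in each strain). Mmp9, a gelatinase, had 1.80 (SE 0.23, adjusted p = 0.000323) in Δchat-colonized and 3.75 (SE 0.24, adjusted p = 1.35e-06) in WT-colonized mice, Mmp13, a collagenase, 1.69 and 2.59, the inhibitor Timp2 -1.08 and -0.87 (called in both), and Mmp3 1.74 in WT-colonized mice. Of 17 genes of TGF-β signalling, the main inducer of collagen transcription, 2 were higher and 2 lower in Δchat-colonized mice, and 2 were higher and 1 was lower in WT-colonized mice (23.5% and 17.6% called). In WT-colonized mice the share of this list was below the 28.8% of all genes. So were those of folding (10%), cleavage and cross-linking (23.1%), fibril-associated matrix (25%) and basement membrane partners (23.5%). The ligand Tgfb3 was lower (-0.75 and -0.68) and the repressor Skil higher (0.49 and 0.48) with both strains; Smad3, a signal transducer of the pathway, was lower in Δchat-colonized mice (-0.47).

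The strain comparison in colon asked whether collagen transcripts differed with bacterial acetylcholine production. No collagen gene was called there: 0 of 35 by edgeR on the 8 colon libraries (0.00682% of 14660 genes were called), 0 by DESeq2 (2.1% of all genes) and 0 by limma-voom, with 4 of 35 genes (11.4%) at an unadjusted p under 0.05 by edgeR, no more than the 13.3% of all genes. The log2 fold changes, Δchat over WT, ran from -0.95 to 0.88 with a median of -0.07 (0.01 over all genes), and the smallest adjusted p was 0.313. With the epithelial score as covariate 1 of 35 had an unadjusted p under 0.05, Col23a1, against 8.98% of all genes. The 4 genes, named after their values were seen, were Col20a1 (-0.95, SE 0.28, adjusted p = 0.313), Col23a1 (-0.78, SE 0.28, adjusted p = 0.335), Col13a1 (0.88, SE 0.33, adjusted p = 0.335) and Col4a2 (0.61, SE 0.23, adjusted p = 0.339). Col1a1 and Col3a1 had -0.13 (SE 0.30) and -0.20 (SE 0.31). Col4a5, Col4a6 and Col27a1, which set the tissues apart, had 0.05 (SE 0.29), -0.02 (SE 0.31) and 0.07 (SE 0.23). Summed over 12 epithelial markers, Δchat colon had 216 to 3028 CPM and WT colon 39.3 to 194 CPM. By edgeR 0 of the 12 were called and 12 had an unadjusted p under 0.05, with a median log2 fold change of 3.22. DESeq2 called 1 and limma-voom 0, with 2 and 4 at such a p. Of all genes, 13.3%, 14.1% and 13.6% had such a p by edgeR, DESeq2 and limma-voom. The part of these markers in the collagen values was tested only through the epithelial score.

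In ileum, Δchat against WT, most collagen genes had a negative log2 fold change and none passed the test. By edgeR on the 8 ileum libraries 0 of 33 tested collagen genes were called (0.0207% of 14496 genes were), and the smallest adjusted p was 0.189. An unadjusted p under 0.05 was found for 4 of them (12.1%), near the 10.9% of all genes. DESeq2 called 2, Col20a1 and Col17a1, against 2.59% of all genes. Limma-voom called 0, against 0.931% of all genes. By DESeq2 11 of 33 had an unadjusted p under 0.05 (33.3%, against 12.5% of all genes), and by limma-voom 21 of 33 (63.6%, against 23.5%). The median log2 fold change was -0.66, against 0.01 over all genes, and 22 of 33 were negative. The 8 fibrillar genes tested had a median of -0.88, the 5 type VI genes -0.94, the 5 FACIT genes -0.90 and the 6 type IV genes 0.19. Col1a1 averaged 744 ± 727 CPM in Δchat ileum and 1525 ± 323 CPM in WT ileum (SD, n = 4 each), with a log2 fold change of -1.04 (SE 0.63, adjusted p = 0.584). Col3a1 averaged 707 ± 642 CPM in Δchat ileum and 1386 ± 246 CPM in WT ileum, with -0.98 (SE 0.57, adjusted p = 0.572).

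The result depended on 1 library. Without Δchat ileum replicate 3, 8 collagen genes were called lower in Δchat ileum than in WT ileum and none higher, and 1.47% of all genes tested were called lower: Col3a1 (-1.84, adjusted p = 0.0436), Col5a1 (-1.62), Col5a2 (-1.52, adjusted p = 0.0226), Col5a3 (-1.18), Col6a1 (-1.65), Col6a2 (-1.82), Col8a1 (-1.19) and Col14a1 (-1.65). Each library was left out in turn, and nothing in the label of this one sets it apart. Its fibroblast markers, at 2288 CPM, lay within the 1621 to 2598 CPM of the WT ileum libraries, while the other 3 Δchat ileum libraries lay below them. Over all 8 ileum libraries 0 of the 12 fibroblast markers were called by edgeR, 0 by DESeq2 and 0 by limma-voom. By these tools 2, 3 and 11 of the 12 had an unadjusted p under 0.05, against 10.9%, 12.5% and 23.5% of all genes. All 12 had a negative log2 fold change by edgeR, with a median of -1.02. With the stromal score as covariate 0 collagen genes were called by edgeR over the 8 libraries, and the median was -0.27. In that fit 14 had an unadjusted p under 0.05 (42.4%, against 9.9% of all genes).

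The genes with an unadjusted p under 0.05 in ileum were Col20a1, Col17a1, Col23a1 and Col13a1. Col20a1, a FACIT gene outside the rule for named genes and chosen after its values were seen, had 3.66, 3.54, 4.16 and 3.94 CPM in Δchat ileum, against 7.26, 5.28, 7.26 and 12.96 CPM in WT ileum. The values of Col17a1 and Col23a1 in ileum are given with the tissue comparison, and all 3 genes were lower in every Δchat ileum library than in any WT ileum library, as 3.34% of all genes were. Their log2 fold changes were -1.12 (SE 0.26, adjusted p = 0.189), -0.76 (SE 0.20, adjusted p = 0.226) and -0.89 (SE 0.28, adjusted p = 0.312), and DESeq2 gave adjusted p = 0.00996, 0.0336 and 0.0732. Col13a1 went the other way, with 34.2, 38.6, 42.6 and 32.6 CPM in Δchat ileum, against 28.2, 21.8, 22.1 and 32.1 CPM in WT ileum. Every Δchat library of Col13a1 was above every WT library by a narrow margin, as 3.85% of all genes were, and the log2 fold change was 0.48 (SE 0.15, adjusted p = 0.296). Col13a1 had 33.6, 20.9, 27.05 and 54.5 CPM in Δchat colon, against 13.1, 14.9959, 27.2 and 18.7 CPM in WT colon. Col20a1 had 2.25, 4.16, 2.46 and 3.07 CPM in Δchat colon, against 6.62, 6.38, 6.75 and 3.50 CPM in WT colon. The colon groups overlapped for both. Col20a1, Col23a1 and Col13a1 had the same direction in colon and ileum, which come from the same mice, and none passed the edgeR test in either.

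The last comparison, the difference of the strain effect between ileum and colon, was tested as an interaction in the fit over all 16 libraries. It was called for 0 of 35 collagen genes by edgeR, with 0 at an unadjusted p under 0.05 (0.0592% of all genes were called); DESeq2 and limma-voom also called 0, and limma-voom had 6 at an unadjusted p under 0.05 (17.1%, against 13.6% of all genes). By edgeR 9 of 35 had such a p with the mouse as a block (25.7%, against 8.4% of all genes) and 13 without Δchat ileum replicate 3 (37.1%, against 12.7%), and 0 were called in either fit. The median was -0.37 on the log2 scale, against 0.02 over all genes, and 27 of 35 genes were negative. Of the listed partner genes 1 was called, Mmp9, whose strain effect was lower in ileum than in colon by 1.95 on the log2 scale (a difference of -1.95, SE 0.32, adjusted p = 0.0388). A difference of the tissue contrasts of the collagens was therefore not shown between Δchat-colonized and WT-colonized mice, and the test does not show that they were alike.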

How the data were processed

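Bulk RNA-seq was measured in 16 libraries of lamina propria cells. The deposited table holds estimated counts per gene, which the authors made with cutadapt 5.0 and Salmon 1.4.0 on build GRCm39, per the submitters' processing notes. The annotation used by the authors and the strand setting are not given in the sources used here. Poly-A RNA was sequenced, per the labels' protocols. Of 35647 gene identifiers, 35105 had a symbol, and the 542 without one took 0.0853% to 0.105% of the counts. Per library, 34.8% to 40.7% of values were fractional, so estimated counts were rounded before testing.

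Tests were made in R 4.3.3 with edgeR 4.0.16 (filterByExpr, TMM scaling, robust quasi-likelihood test, p adjusted by Benjamini-Hochberg across every gene that passed the filter; called means an adjusted p under 0.05). The tissue contrasts and the difference between tissues used 1 fit to all 16 libraries, and the strain contrasts used the 8 libraries of a tissue. DESeq2 1.42.0, limma-voom (limma 3.58.1), other scaling and filters, covariates for stromal and epithelial markers, a block and leaving out each library were alternatives. Levels are CPM with TMM scaling, and lengths for CPM per kilobase are those of the longest coding transcript in GENCODE M21. The scripts were tested on simulated data.

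Library names carry 1 mouse number in both tissues and the series gives 4 mice per strain, so ileum and colon of a mouse were paired in the block. The deviations of such pairs from their group means correlated between -0.18 and 0.27. Replicate pairs of a group differed by more than sampling noise, with a chi-square per degree of freedom of 25.4 to 93.4. The p-values measure the spread between these libraries. Totals of 15940467 to 23612561 estimated counts limit precision for the rare chains.

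The 44 genes and the gene lists were chosen with earlier results of these data known. Values per library are given for genes called in a tissue comparison and for the gene of each class with the highest mean CPM, and for up to 3 called genes of each list by p. Some called genes that this rule names are not reported here. Promoter sequences are on GRCm38.p6, not the build of the counts.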

Additional observations from a re-analysis of the deposited data

Results flagged for a closer look

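Among the named genes, 84 groups of 4 libraries were examined for a library far from the other 3 of its group, and 5 had one, where chance gives about 1 in 20. In Δchat ileum, replicate 3 was the highest for Col4a5 (15.8 CPM) and for Col5a2 (134 CPM). In Δchat ileum, replicate 4 was the highest for Col24a1 (0.514 CPM). In Δchat colon, replicate 1 was the lowest for Col23a1 (4.81 CPM) and replicate 4 the highest for Col28a1 (4.53 CPM). Replicate 3 of Δchat ileum is also the library with 2288 CPM of fibroblast markers.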

How the results depend on the processing

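The count of collagen genes called between tissues moved with the setting. In Δchat-colonized mice it was 11, but 7 with the epithelial score as covariate (10.8% of all genes were called, against 13.3% without it) and 5 to 17 when 1 library was left out (8.54% to 14.1%). In WT-colonized mice it was 9 (28.8% of all genes were called). There it was 17 with the stromal score as covariate (35.7%) and 5 to 8 when 1 library was left out (16.9% to 27.1%). With the mouse as a replicate block the counts were 13 in Δchat-colonized mice (12.3% of all genes) and 7 in WT-colonized mice (25.7%). Between strains in ileum the count was 0 by edgeR (0.0207% of all genes) and 2 by DESeq2 (2.59%). Leaving out 1 library gave 0 to 8 there (0% to 1.69%), the 8 without Δchat ileum replicate 3. Between strains in colon, and for the difference between tissues, the count was 0 in every alternative run, leaving out 1 library included. By DESeq2 2.1% and 0.382% of all genes were called in these. A block on the replicate number, which the labels do not tie to a shared litter or day, called 0 in both strain comparisons. With it, 45.5% of the collagen genes in ileum had an unadjusted p under 0.05 by edgeR, against 8.71% of all genes. In colon it was 14.3%, against 14.1%. The block on the mouse called 0 for the difference. Libraries of the strains with the same replicate number were compared by their deviations from the group means. These deviations correlated between -0.09 and 0.33 in colon and between -0.27 and 0.01 in ileum. For WT-colonized mice the replicate number is not the mouse number in the library names. Over the called genes and all alternatives, 258 values kept their side of the threshold, 81 lost it and 0 changed sign. The cause was not tested. Depth limits Col24a1 and Col6a6, and Adamts3 and Comp of the gene lists, which lie near or under 1 CPM.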
